A study of Mus musculus with 9 samples.

Results

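The 8 RNA-binding protein genes described here act on the translation or decay of messages in stem cells and were read as rows of a mouse RNA sequencing count table. They are Msi2, Pum2, Igf2bp2, Syncrip, Elavl1, Ptbp1, Zfp36l1 and Zfp36l2, taken as a list by symbol, and they make up 8 of the 47480 rows of the table. All 8 passed the filter on low counts that left 16426 genes to test. The lowest count of any of them in any library was 57.

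The 9 libraries came from C57BL/6 mouse bone marrow and fall into 4 groups that cross a cell population with an RNA fraction: MP polysomal (n = 3), MP total (n = 2), LSK polysomal (n = 2) and LSK total (n = 2). LSK cells are labelled as stem cells and MP cells as progenitors, and the labels do not spell out the abbreviations. All cells were exposed to cycloheximide (100 ug/ml for 10 min), which holds ribosomes on messages. Lysates were run on 10 to 60% sucrose gradients, fraction 7 of 10 was the polysomal RNA, and total RNA was kept from the lysate before the gradient. No label ties a library to an animal, a sort or a lysate, so what the p-values weigh is how far these libraries lie apart, and that may include technical spread.

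Library totals lay between 27342343 and 34807735 counts, with 17199 to 19426 genes counted in polysomal libraries and 20081 to 26046 in total libraries. The stem cell surface gene Ly6a (Sca-1) averaged 0.673 CPM (counts scaled to a common effective library size with TMM factors) in MP polysomal and 0.775 CPM in MP total RNA, against 90.8 CPM in LSK polysomal and 63.8 CPM in LSK total RNA. Kit, the stem cell factor receptor, averaged 582 to 1153 CPM in all 4 groups. Summed over 6 erythroid markers, MP libraries held 3593 to 6025 CPM, against 321 to 626 CPM in LSK libraries. Neutrophil and B cell messages also differed between libraries of the same group. Summed over 8 neutrophil markers, MP polysomal 1 and MP total 1 held 17714 and 14265 CPM, and the other 3 MP libraries 511 to 1003 CPM, against 440 to 2403 CPM in LSK libraries. Summed over 8 B cell markers, MP libraries held 154 to 356 CPM, while LSK polysomal 2 and LSK total 2 held 3279 and 4271 CPM, against 870 and 597 CPM in LSK polysomal 1 and LSK total 1. In bulk RNA, fewer cells of a type and less RNA per cell cannot be told apart.

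RNA-binding proteins read short motifs, most often in the 3' untranslated region of a message, and then recruit or block the machinery that translates it or shortens its poly(A) tail. Pumilio proteins such as Pum2 bind an 8-base element and recruit deadenylases. Zfp36l1 and Zfp36l2, of the tristetraprolin family, bind AU-rich elements and speed decay, while Elavl1 (HuR) binds AU-rich and U-rich stretches and generally stabilises the message. Msi2 (Musashi-2) represses or promotes translation depending on the message and is known as a regulator of stem cell self-renewal. Syncrip (hnRNP Q) binds messages and influences their translation, Igf2bp2 protects and localises its messages, and Ptbp1 mainly represses exons during splicing.

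The 3' untranslated regions of these genes hold motifs of the kinds that Pum2 and the Zfp36 family bind, and 1 site per gene is shown here so that the levels below can be read beside it. The sequences come from GRCm38 with GENCODE M21, on the strand of the gene, 5' to 3', in the coding transcript with the longest 3' untranslated region. Capitals mark the Pumilio element TGTANATA (N is any base) or the tristetraprolin-family nonamer TTATTTATT, written as DNA. Both were searched on the sense strand only, and overlapping matches were each counted.
Msi2, chr11:88344447-88344476, minus strand: gcttttaaacgTGTATATAatccatgattt
Pum2, chr12:8750154-8750183, plus strand: gtttatagagaTGTATATAgaattatagtt
Igf2bp2, chr16:22060384-22060413, minus strand: ctgtacatgtaTGTACATAtcagaagggga
Syncrip, chr9:88453583-88453612, minus strand: cctgtctgtacTGTACATAgaaaatctttg
Ptbp1, chr10:79864158-79864187, plus strand: gcgtggaagagTGTAAATAtttatgatttt
Elavl1, chr8:4285787-4285816, minus strand: gtcatgaaaaTTATTTATTtatttatttat
Zfp36l1, chr12:80108166-80108195, minus strand: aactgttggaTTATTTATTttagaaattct
Zfp36l2, chr17:84184913-84184942, minus strand: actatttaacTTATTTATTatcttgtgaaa
The Pumilio element occurred 3 times in Msi2, 2 times in Pum2 itself, 1 time in Igf2bp2, 4 times in Syncrip and 1 time in Ptbp1, and it was not matched in Elavl1, Zfp36l1 or Zfp36l2. The nonamer occurred 8 times in Elavl1, in overlapping copies, and 1 time each in Zfp36l1 and Zfp36l2, and it was not matched in the other 5. Over the last 1000 bases of the 3' untranslated region, 21.7% of 6928 tested genes held the Pumilio element and 5.53% the nonamer. In that window the element was found in Msi2 and Ptbp1, and the nonamer in Elavl1 and Zfp36l1. The sites printed for Msi2, Pum2, Igf2bp2, Syncrip and Zfp36l2 lie outside it. The counts per gene are over whole 3' untranslated regions, 1494 to 7245 bases long in these genes. No share of all genes was taken over whole regions, so those counts have no background. A match describes letters and is not evidence of binding.

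Msi2 was lower in MP than in LSK cells, the one gene of the 8 whose population difference passed the test. It lies in chr11:88339382-88718513 on the minus strand. Its level was 29.9, 27.9 and 15.9 CPM in MP polysomal RNA and 16.1 and 17.3 CPM in MP total RNA, against 86.3 and 43.4 CPM in LSK polysomal RNA and 68.6 and 64.0 CPM in LSK total RNA. Every MP library lay below every LSK library. Averaged over both fractions, Msi2 fell by 1.70 on the log2 scale (SE 0.388, 95% interval -2.57 to -0.83), with an adjusted p of 0.0240 by edgeR's quasi-likelihood test. The background for this comparison was 10.1% of tested genes passing in either direction and 7.37% passing as lower, so 1 of 8 is near it. The libraries of 8.51% of all genes lay wholly lower in MP.

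The difference was of similar size in each fraction taken alone but did not pass there. In total RNA the log2 change was -1.99 (SE 0.587, unadjusted p = 0.00727, adjusted p = 0.124), and in polysomal RNA it was -1.40 (SE 0.509, unadjusted p = 0.0212, adjusted p = 0.179), both by edgeR. In total RNA 1.09% of genes passed in either direction, and in polysomal RNA 3.35% passed. In total RNA, Msi2, Pum2 and Syncrip had both MP libraries below both LSK libraries, as did 28.5% of all genes. In polysomal RNA, Msi2 lay wholly lower in MP, as did 17.4% of all genes, and Syncrip wholly higher, as did 15%. DESeq2 called Msi2 in total RNA as well (adjusted p = 0.0137). The averaged edgeR call for Msi2 was kept without LSK polysomal 2 (adjusted p = 0.0188), MP polysomal 1 (0.0426) or MP polysomal 3 (0.0478) and lost without any of the other 6 libraries taken singly. Its adjusted p was 0.0553 without LSK polysomal 1, 0.0582 without LSK total 1, 0.0575 without LSK total 2, 0.0625 without MP polysomal 2, 0.133 without MP total 1 and 0.117 without MP total 2, by the same edgeR test. The log2 change itself stayed between -1.90 and -1.38 when any single library was left out. Without both LSK libraries numbered 2, where B cell messages were high, it was -1.93 (adjusted p = 0.0297). Without both MP libraries numbered 1, where neutrophil messages were high, it was -1.74 (adjusted p = 0.193). Erythroid messages were higher in every MP library (3593 to 6025 CPM) than in every LSK library (321 to 626 CPM), so the part of such cells in this and the other population differences cannot be told apart.

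**Figure D1:**
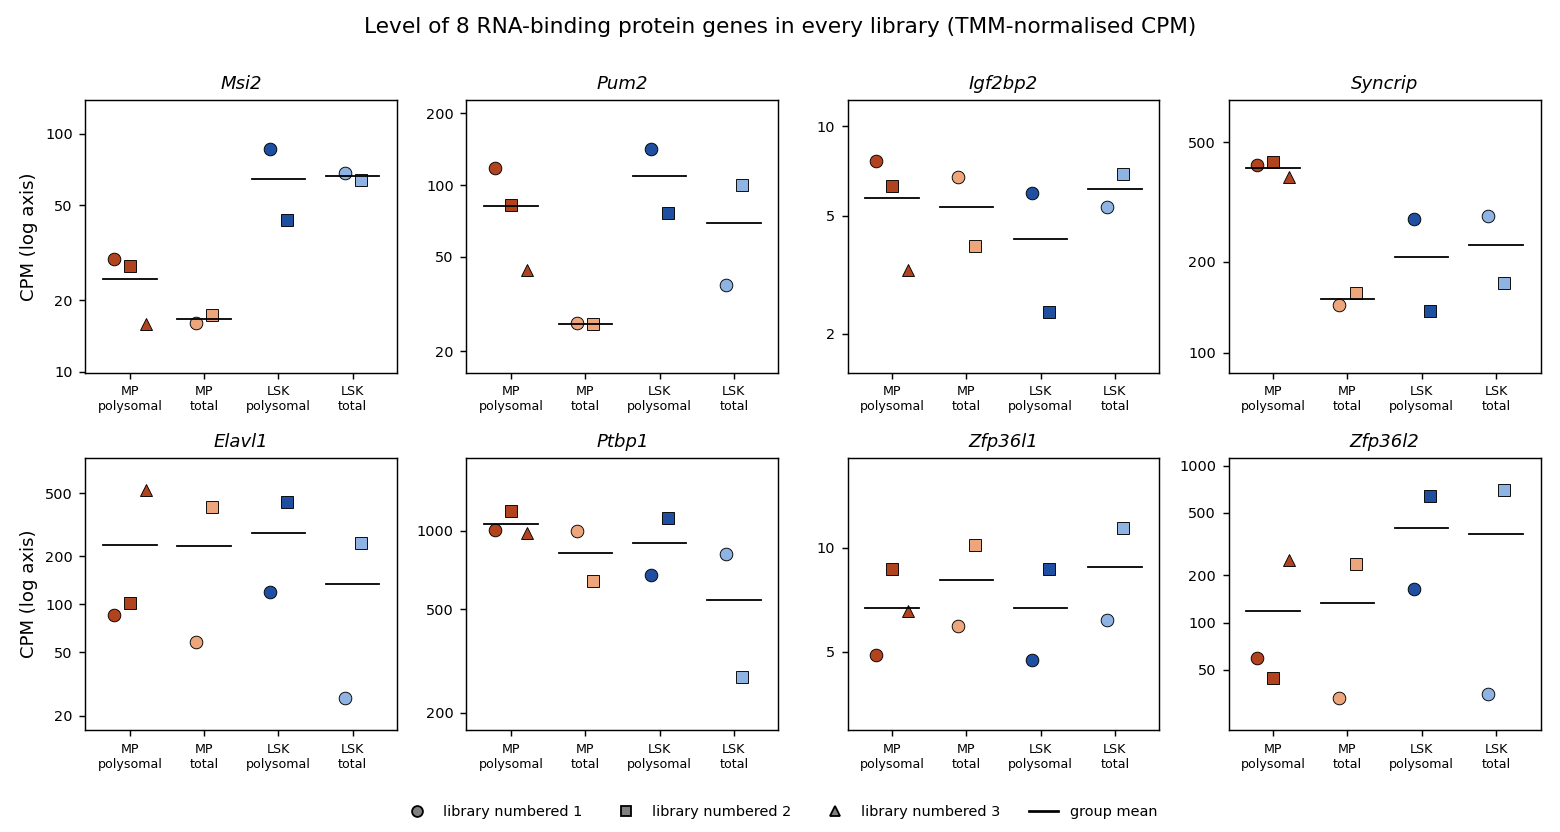
The level of each of the 8 genes is plotted for every library in CPM on a log axis, with MP polysomal, MP total, LSK polysomal and LSK total side by side, symbols for the library number and a bar for the group mean. Msi2 sits at 15.9 to 29.9 CPM in MP and 43.4 to 86.3 CPM in LSK libraries, while Elavl1 and Zfp36l2 spread widely within every group.

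Pum2, the Pumilio repressor, was lowest in MP total RNA. It lies in chr12:8674134-8752581 on the plus strand. Its level was 118, 82.4 and 44.2 CPM in MP polysomal RNA, against 26.3 and 26.1 CPM in MP total RNA. In LSK cells it was 142 and 76.6 CPM in polysomal RNA, against 37.9 and 100.2 CPM in total RNA. The polysomal libraries all lay above the total libraries in MP, whereas in LSK the fractions overlapped. Within MP the polysomal-over-total log2 change was 1.64 (SE 0.637, unadjusted p = 0.0288), and its adjusted p was 0.656 by edgeR. Averaged over both populations it was 1.15 (SE 0.456, 95% interval 0.13 to 2.17, unadjusted p = 0.0313, adjusted p = 0.279 by edgeR). Averaged over fractions, the MP-over-LSK log2 change was -0.91 (95% interval -1.91 to 0.09, adjusted p = 0.254 by edgeR), which did not pass.

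Syncrip lies in chr9:88447009-88482574 on the minus strand. Its level was 421, 431 and 382 CPM in MP polysomal RNA, against 144 and 157 CPM in MP total RNA. In LSK cells it was 278 and 137 CPM in polysomal RNA, against 284 and 170 CPM in total RNA. The MP fractions were well apart and each was tight, with the highest polysomal library 1.13 times the lowest, a ratio smaller than that of all but 1.88% of the 9073 genes averaging 10 CPM or more. In LSK the fractions overlapped.

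Within MP the Syncrip polysomal-over-total log2 change was 1.45 (SE 0.474, 95% interval 0.39 to 2.51, unadjusted p = 0.0127, adjusted p = 0.656 by edgeR). The difference of this change between MP and LSK, tested as an interaction, was 1.58 on the log2 scale (SE 0.678, 95% interval 0.06 to 3.10, unadjusted p = 0.0432, adjusted p = 0.877 by edgeR). Neither passed over all genes. In the comparison of polysomal with total RNA in MP, 0% of genes passed by edgeR, 7.57% had an unadjusted p under 0.05 (1243 genes), and DESeq2 called 30 genes. For the interaction 0% passed by edgeR, 5.29% had an unadjusted p under 0.05 (869 genes), and DESeq2 called 1. Of all genes, 16.3% had every MP polysomal library above every MP total library, as Pum2 and Syncrip did.

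Igf2bp2 was among the lower members in every library. It lies in chr16:22059009-22163299 on the minus strand. Its level was 7.65, 6.31 and 3.28 CPM in MP polysomal RNA and 6.73 and 3.96 CPM in MP total RNA, against 5.98 and 2.37 CPM in LSK polysomal RNA and 5.34 and 6.93 CPM in LSK total RNA. All 4 groups overlapped. The MP-over-LSK log2 change was 0.13 (95% interval -0.91 to 1.17) and the polysomal-over-total log2 change was -0.22 (95% interval -1.26 to 0.81), both averaged, so neither interval is narrow enough to show that the groups were alike.

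Elavl1, the stabilising factor, lay far apart between libraries of the same group. It lies in chr8:4285382-4325413 on the minus strand. Its level was 85.3, 102 and 520 CPM in MP polysomal RNA and 57.9 and 407 CPM in MP total RNA, against 120 and 439 CPM in LSK polysomal RNA and 25.9 and 242 CPM in LSK total RNA. The libraries numbered 2 were above those numbered 1 in all 4 groups, and MP polysomal 3 was the highest of the 9. Averaged over fractions, the MP-over-LSK log2 change was 0.27 (SE 0.863, 95% interval -1.66 to 2.21). It turned negative without MP polysomal 3 (-0.39), without MP total 2 (-0.72) or without LSK total 1 (-0.14).

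Zfp36l2, a decay factor needed for blood stem cells in mice, followed a like course across the libraries. It lies in chr17:84183931-84187947 on the minus strand. Its level was 59.2, 44.6 and 252 CPM in MP polysomal RNA and 33.0 and 235 CPM in MP total RNA, against 164 and 640 CPM in LSK polysomal RNA and 35.03 and 701 CPM in LSK total RNA. LSK total 1 lay among the low MP libraries, and MP polysomal 3 and MP total 2 lay above LSK polysomal 1, so the populations overlapped. The averaged MP-over-LSK log2 change was -1.61 (SE 0.933, 95% interval -3.70 to 0.48, adjusted p = 0.348 by edgeR). Without LSK total 2 it was 0.09, and without both LSK libraries numbered 2 it was 0.74.

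Within a group, the highest Elavl1 library was 6.10 times the lowest in MP polysomal, 7.03 times in MP total, 3.65 times in LSK polysomal and 9.35 times in LSK total RNA. For Zfp36l2 these ratios were 5.64, 7.12, 3.91 and 20.01 in the same order of groups. The median gene of 9073 had ratios of 1.87, 1.41, 2.05 and 1.80. In MP total RNA 96.9% of genes had a smaller ratio than either gene, and in LSK polysomal RNA 75.8% had a smaller one than Elavl1 and 78.0% a smaller one than Zfp36l2. Across the 9 libraries the log2 levels of Elavl1 and Zfp36l2 had a Pearson r of 0.85, given as a description of points that share libraries. High Elavl1 went with high B cell marker sums in LSK libraries numbered 2 (3279 and 4271 CPM). The MP libraries high in Elavl1, MP polysomal 3 and MP total 2, held 154 and 163 CPM of B cell markers. Those MP libraries held 511 and 1003 CPM of neutrophil markers, against 17714 and 14265 CPM in the MP libraries numbered 1. Summed over 4 megakaryocyte markers, LSK polysomal 2 and LSK total 2 held 740 and 338 CPM, and MP polysomal 3 and MP total 2 held 482 and 473 CPM. The other libraries held 131 to 285 CPM. Summed over 8 stem cell markers, the library highest in Elavl1 was the lowest of its group, at 1452, 933, 972 and 540 CPM in the same order. The part of these cell types in the spread was not tested.

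**Figure D2:**
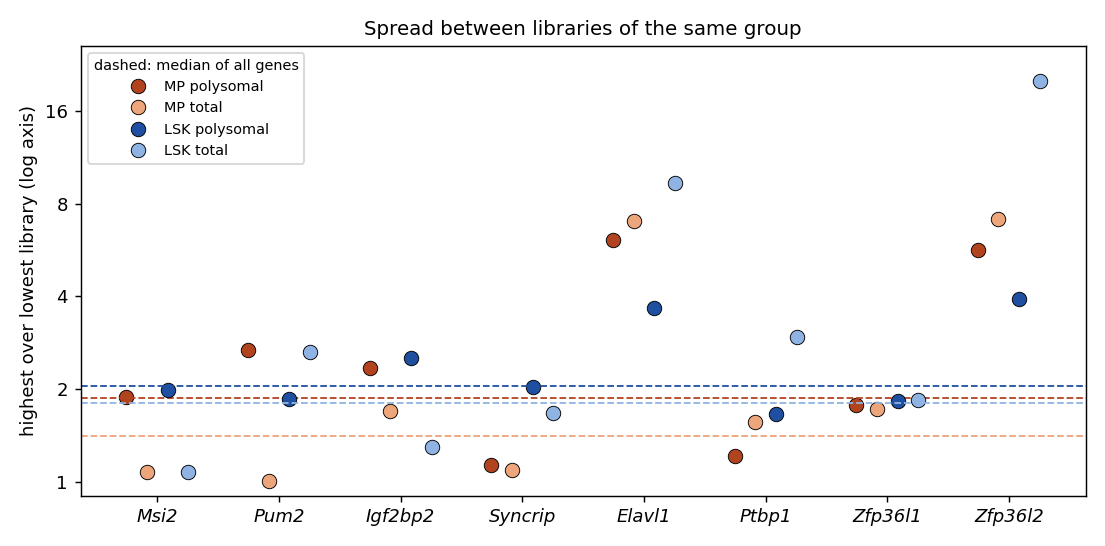
For each gene the ratio of the highest to the lowest library of a group is plotted on a log axis, with MP polysomal, MP total, LSK polysomal and LSK total in separate colours and the median of all genes dashed. Elavl1 and Zfp36l2 stand above the medians in all 4 groups, at 3.65 to 9.35 and 3.91 to 20.01, while Msi2, Pum2 and Syncrip have ratios under 1.1 in MP total RNA.

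Zfp36l1, the sister decay factor, ran from 4.75 to 11.4 CPM over the 9 libraries. Within a group its highest library was 1.72 to 1.84 times its lowest, and 43.2% to 70.6% of the 9073 genes had a smaller ratio. The gene lies in chr12:80107754-80113013 on the minus strand. Its level was 4.88, 8.69 and 6.57 CPM in MP polysomal RNA and 5.93 and 10.2 CPM in MP total RNA, against 4.75 and 8.68 CPM in LSK polysomal RNA and 6.18 and 11.4 CPM in LSK total RNA. Its library numbered 2 was the highest of each group, a position above number 1 in all 4 groups that 15.2% of the 9073 genes shared. The averaged MP-over-LSK log2 change was -0.06 (95% interval -1.02 to 0.90). Of its exon bases, 1672 (55.9%) are shared with the lincRNA Gm26669 on the opposite strand, which itself had 0 to 5 counts per library. How the counting treated strand is not given in the sources used here. Unless strand was used, reads from that stretch cannot be told apart between the genes, so the Zfp36l1 level is uncertain.

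Ptbp1, the splicing repressor, had the highest mean level per exon length in all 4 groups, though in LSK libraries Zfp36l2 overlapped with it. Ptbp1 lies in chr10:79854427-79864771 on the plus strand. Its level was 1006, 1190 and 980 CPM in MP polysomal RNA and 999 and 642 CPM in MP total RNA, against 676 and 1122 CPM in LSK polysomal RNA and 813 and 275 CPM in LSK total RNA. The groups overlapped, and LSK total 2 was the lowest library. The averaged log2 changes were 0.41 for MP over LSK (95% interval -0.45 to 1.28) and 0.55 for polysomal over total RNA (95% interval -0.32 to 1.41), and neither passed. On the opposite strand Ptbp1 shares 251 exon bases with Plppr3, which had 391 to 8709 counts per library. It also shares 295 with E130317F20Rik (36 to 135 counts) and 437 with Gm17134 (0 counts), so part of its count is uncertain. Smaller overlaps limit other members. Elavl1 shares 204 bases with Ccl25 (opposite strand, 80 to 749 counts). Syncrip shares 344 with Gm20537 (same strand, 0 to 5 counts), and Zfp36l2 shares 105 with AC132455.1 (opposite strand).

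For polysomal over total RNA averaged over both populations, none of the 8 genes passed by edgeR, 1 had an unadjusted p under 0.05 (Pum2), and DESeq2 called 0 of them. By edgeR 0% of genes passed, 14.9% had an unadjusted p under 0.05 (2441 genes), and DESeq2 called 765. Beside the Pum2 value above, the averaged log2 changes were 0.66 for Syncrip (95% interval -0.10 to 1.42), 0.54 for Elavl1 (-1.40 to 2.48), 0.26 for Msi2 (-0.60 to 1.12), -0.33 for Zfp36l1 (-1.29 to 0.64) and -0.03 for Zfp36l2 (-2.09 to 2.04). In LSK alone, where 0% of genes passed by edgeR, 1981 genes (12.1%) had an unadjusted p under 0.05 and DESeq2 called 433, none of the 8 genes had an unadjusted p under 0.05 or was called by DESeq2. For the change averaged over both populations, the intervals of Elavl1 and Zfp36l2 were the widest of the 8. They and the interval of Pum2 (0.13 to 2.17) reach beyond a log2 change of 2 on the higher side.

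**Figure D3:**
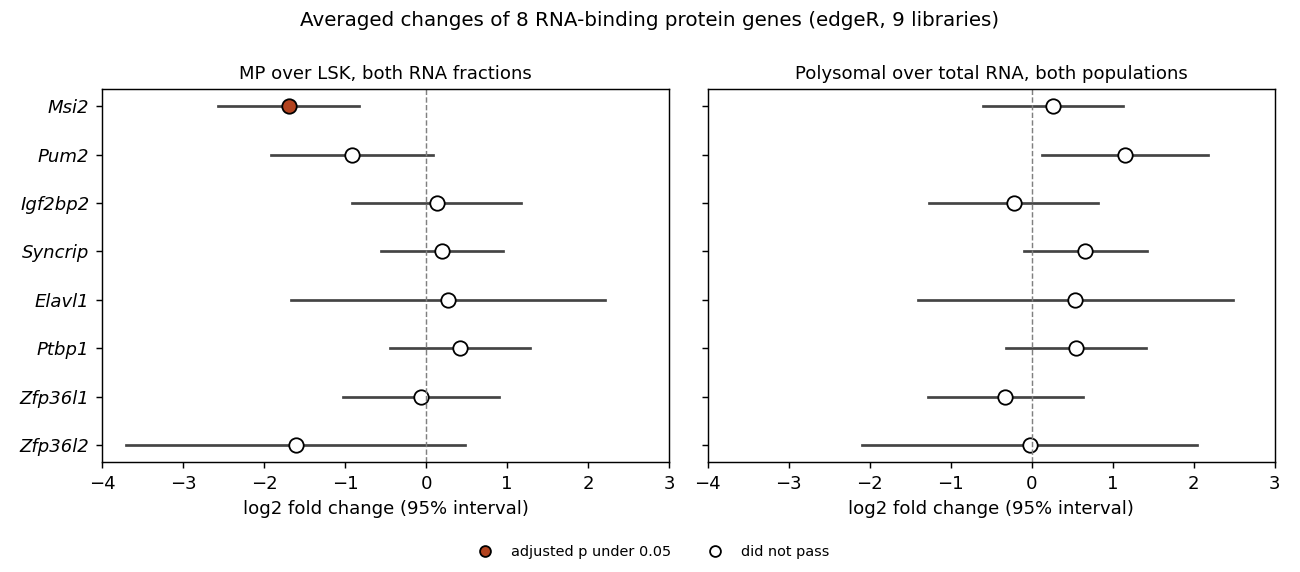
The averaged log2 fold change of each gene is drawn with its 95% interval, MP over LSK on the left and polysomal over total RNA on the right, with a filled point where the adjusted p was under 0.05. Msi2 alone is filled, at -1.70 for MP over LSK, and the intervals of Elavl1 and Zfp36l2 are the widest.

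Levels can be ordered only per exon length, here in CPM per kilobase of GENCODE M21 exons. In MP polysomal RNA the group means were 223 for Ptbp1, 33.6 for Zfp36l2, 33.4 for Syncrip, 22.7 for Elavl1, 11.2 for Pum2, 2.36 for Msi2, 2.25 for Zfp36l1 and 0.777 for Igf2bp2. In LSK total RNA they were 115 for Ptbp1, 104 for Zfp36l2, 18.5 for Syncrip, 12.9 for Elavl1, 9.51 for Pum2, 6.37 for Msi2, 2.94 for Zfp36l1 and 0.829 for Igf2bp2. The order of the means was the same in these groups. In MP total and LSK polysomal RNA, Elavl1 (22.4 and 27.01) stood above Syncrip (12.2 and 16.9), and in MP total RNA Zfp36l1 (2.70) stood above Msi2 (1.603). The place of Zfp36l1 is uncertain in every group, as 55.9% of its exon bases are shared with Gm26669. Many neighbours overlapped. In MP polysomal RNA, Zfp36l2 ran from 12.6 to 71.3 CPM per kilobase and Elavl1 from 8.23 to 50.2, so neither could be set apart from Syncrip at 31.0 to 35.03. Pum2 (6.08 to 16.2) overlapped with Elavl1, and Msi2 (1.53 to 2.87) overlapped with Zfp36l1 (1.63 to 2.91). Ptbp1 (207 to 251) lay above all the others there, and Igf2bp2 (0.444 to 1.03) below all. In LSK total RNA, Ptbp1 (58.0 to 172) overlapped with Zfp36l2 (9.92 to 199). In LSK polysomal RNA they overlapped too, at 143 to 237 for Ptbp1 and 46.4 to 181 for Zfp36l2.

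The nearest relatives of the 8 genes differed in whether they were present. Msi1, the neural Musashi, and Zfp36l3 each had 1 count over all 9 libraries, and Igf2bp1, Elavl2, Elavl3 and Elavl4 had 10 to 25 counts in all. Igf2bp3, known as a fetal form, had 115 counts in all and 0 to 1.05 CPM per library. Ptbp3, a relative of Ptbp1 known from blood cells, had 593 to 604 CPM in MP polysomal RNA, against 216 to 266 CPM in MP total RNA, and 149 to 332 CPM in LSK polysomal RNA, against 241 to 436 CPM in LSK total RNA. Like Syncrip and 16.3% of all genes, it lay wholly higher in polysomal RNA in MP, and in LSK its fractions overlapped. Hnrnpr, the relative of Syncrip, ran from 53.6 to 270 CPM and Zfp36, the family founder, from 59.2 to 486 CPM. Of 12 relatives, 6 passed the low-count filter and 0 passed edgeR's test in any of the 7 comparisons. Per comparison, 0 to 3 had an unadjusted p under 0.05 and DESeq2 called 0. The unadjusted count was 3 of 6 for MP over LSK in polysomal RNA, beside 17.8% of all genes. For the interaction it was 2 of 6 (Igf2bp3 and Ptbp3), beside 5.29% of all genes. Over all genes, edgeR's test passed 0% (interaction and polysomal over total RNA) to 10.1% (MP over LSK averaged). A count of 0 of 6 passing therefore does not set the relatives apart. The share of all genes with an unadjusted p under 0.05 was 5.29% to 24% over the 7 comparisons.

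No gene of the decay machinery that some of these proteins recruit passed the test. The lists tested held 18 CCR4-NOT and other deadenylase genes, counting the Tob and Btg genes, and 19 decapping and exonuclease genes. They also held 14 exosome genes, counting Skiv2l, Ttc37, Wdr61 and Skiv2l2, and 6 poly(A)-binding genes, counting the Paip genes. Of all these, 0 passed by edgeR in any of the 7 comparisons. Over all genes 10.1% passed for MP over LSK averaged, 3.35% in polysomal RNA and 1.09% in total RNA. In the interaction and each polysomal-over-total comparison 0% of all genes passed. Per list and comparison, 0 to 3 had an unadjusted p under 0.05, and DESeq2 called 0 to 1. The count of 3 was among 19 decapping and exonuclease genes, for polysomal over total RNA in MP, beside 7.57% of all genes. The share of all genes with an unadjusted p under 0.05 by edgeR ran from 5.29% (interaction) to 24% (MP over LSK averaged). For MP over LSK averaged, their median log2 changes were 0.02, 0.18, 0.21 and -0.11 in that order, beside -0.01 over all genes tested. Cnot1, the scaffold of CCR4-NOT, had 540 to 582 CPM in MP polysomal RNA, against 119 to 159 CPM in MP total RNA. Xrn1, the main cytoplasmic exonuclease, had 71.0 to 88.6 CPM in MP polysomal RNA, against 14.7 to 22.7 CPM in MP total RNA. These fractions did not overlap in MP, as with Pum2, Syncrip and 16.3% of all genes, and in LSK they overlapped for both genes. Lsm5, of the Lsm ring that binds messages before decapping, lay the other way, with 15.0 to 26.2 CPM in MP polysomal RNA, against 40.6 to 60.2 CPM in MP total RNA. In MP 16.4% of all genes lay wholly lower in polysomal than in total RNA.

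Among 46 other tested RNA-binding regulators of message fate, 2 were higher and 1 lower in MP, averaged over fractions, with a median log2 change of 0.16. Over all genes 2.72% were called higher and 7.37% lower. Lin28a, which blocks maturation of let-7 microRNAs, had 20.5, 6.90 and 4.21 CPM in MP polysomal RNA and 13.8 and 3.99 CPM in MP total RNA, against 0.830 and 0.623 CPM in LSK polysomal RNA and 0.408 and 0.0997 CPM in LSK total RNA. Every MP library lay above every LSK library, as for 4.34% of all genes, with a log2 change of 4.48 (SE 0.766, adjusted p = 0.00713 by edgeR). Lin28a was highest in the 2 MP libraries with the most neutrophil messages, and the change without both was 3.48 (adjusted p = 0.0405). Stau2, a double-stranded RNA-binding protein, had 5.33, 8.23 and 6.25 CPM in MP polysomal RNA and 6.73 and 8.15 CPM in MP total RNA, against 17.04 and 13.4 CPM in LSK polysomal RNA and 25.9 and 35.3 CPM in LSK total RNA. It fell by 1.62 on the log2 scale (SE 0.366, adjusted p = 0.0229 by edgeR). The adjusted p was over the threshold without LSK total 2 (0.0739), MP polysomal 1 (0.0540), MP polysomal 2 (0.0540), MP total 1 (0.140) or MP total 2 (0.114). The other gene called higher, Cpeb3, had 0.466 to 1.94 CPM in MP and 0 to 0.648 CPM in LSK libraries, which overlapped, and its call was lost whichever single library was left out (adjusted p 0.0604 to 0.146).

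Of 22 genes described in the literature as targets or partners of these proteins, 3 were lower and 0 higher in MP, averaged over fractions, with a median log2 change of -0.36 beside -0.01 for all genes. The share of all genes called lower was 7.37%, and 2.72% were called higher. DESeq2 called 5 of the 22, and 2706 of the 16426 genes tested. Meis1, a stem cell transcription factor, had 73.7, 59.6 and 46.8 CPM in MP polysomal RNA and 50.9 and 34.4 CPM in MP total RNA, against 493 and 167 CPM in LSK polysomal RNA and 459 and 262 CPM in LSK total RNA. It fell by 2.77 on the log2 scale (SE 0.427, adjusted p = 0.00486 by edgeR), and it was the one target that also passed in polysomal RNA alone (log2 change -2.46, adjusted p = 0.0436). Without both MP libraries numbered 1 the averaged adjusted p of Meis1 was 0.0527. Hoxa9, its partner, had 6.59, 14.5 and 12.5 CPM in MP polysomal RNA and 20.1 and 15.7 CPM in MP total RNA, against 24.2 and 60.4 CPM in LSK polysomal RNA and 45.1 and 90.8 CPM in LSK total RNA. It fell by 1.92 (SE 0.460, adjusted p = 0.0283 by edgeR). Hoxa9 kept its call only without LSK polysomal 1 or LSK total 1, and without any of the other 7 libraries taken singly the adjusted p was 0.0546 to 0.143.

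Hmga2, a chromatin protein known to drive Igf2bp2 transcription, had 0.991, 0.562 and 0.0637 CPM in MP polysomal RNA and 0.633 and 0.422 CPM in MP total RNA, against 7.87 and 6.19 CPM in LSK polysomal RNA and 4.52 and 8.60 CPM in LSK total RNA. It fell by 3.66 on the log2 scale (SE 0.693, adjusted p = 0.0109 by edgeR). The adjusted p was 0.0593 without MP total 1 and 0.0684 without MP total 2. Igf2bp2 itself overlapped between the populations, as given above. Mdm2, the p53 ubiquitin ligase and a message that Elavl1 is known to bind, had 13.0, 16.3 and 15.97 CPM in MP polysomal RNA, against 58.5 and 71.2 CPM in MP total RNA. In LSK cells it had 7.11 and 5.77 CPM in polysomal RNA, against 49.3 and 98.3 CPM in total RNA. All 5 polysomal libraries lay below all 4 total libraries, which held for 4.9% of genes, but the averaged log2 change of -2.81 (SE 0.384, unadjusted p = 3.23e-05) had an adjusted p of 0.106 by edgeR. In this comparison DESeq2 called 1 of the 22 target genes, beside its count over all genes given above.

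**Figure D4:**
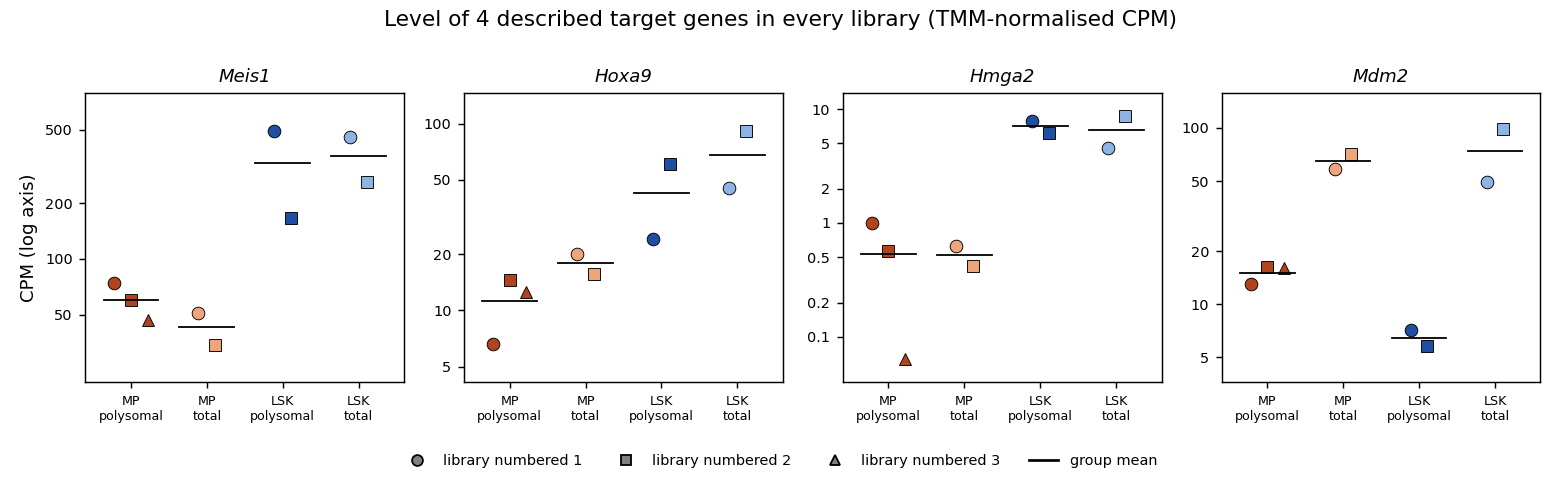
Levels of Meis1, Hoxa9, Hmga2 and Mdm2 are plotted for every library in CPM on a log axis, with group means as bars. Meis1, Hoxa9 and Hmga2 are lower in all MP than in all LSK libraries, and Mdm2 is at 5.77 to 16.3 CPM in polysomal and 49.3 to 98.3 CPM in total libraries.

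For each of the 8 genes, the genes with the most similar course were found by the Pearson correlation of log2 CPM over the 9 libraries, among tested genes averaging 10 CPM or more. These are descriptions of points that share library and depth. Msi2 was followed most closely by Cyp2j6 (0.987), Ifi203 (0.980) and Tgtp2 (0.980), and Syncrip by Ubr1 (0.983) and Cltc (0.978). Elavl1 was followed by Clptm1l (0.991), Abhd17c (0.991) and Ppp1cc (0.990), and Ptbp1 by Tango6 (0.990), Nup62 (0.988) and Srprb (0.985). Zfp36l2 was followed by Timp2 (0.986), Ttyh3 (0.984) and Runx1 (0.974), a blood stem cell transcription factor. The closest for Pum2 was Samhd1 (0.935), for Igf2bp2 Trappc2 (0.948) and for Zfp36l1 Cmpk1 (0.894). Among the 8 genes themselves, Msi2 and Pum2 had an r of 0.63, Elavl1 and Zfp36l1 one of 0.52, and Elavl1 and Igf2bp2 one of -0.67.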

How the data were processed

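The authors deposited raw counts per gene symbol for 9 libraries, and a second table on a log2-like scale, normalized by them, that served as an alternative only. Per the submitters' processing notes, the tools were STAR, featureCounts, bcl2fastq and DESeq2 and the builds mm10 and GRCm38. The sources used here give neither annotation nor strandedness. Groups and library numbers came from the sample titles. Counts were filtered with filterByExpr (minimum count 10, minimum total 15), scaled by TMM and fitted with edgeR 4.0.16 quasi-likelihood models in R 4.3.3, with a mean per group (9 libraries, 5 residual degrees of freedom plus 4.58 prior). In this way 7 two-sided comparisons were made, with Benjamini-Hochberg adjustment over 16426 genes and a threshold of 0.05. The median biological coefficient of variation was 0.558, and at a few counts per library counting error adds to it. DESeq2 1.42.0, limma 3.58.1, other scalings, no filter, a replicate block and leaving out libraries were alternatives. The code was tested on simulated data. Members and gene lists were chosen with earlier results of these data known. Named beside the members were their relatives, the smallest p-values of each list, genes shown for the label check, and for each member the 3 most correlated genes, without predicted models. Some genes that this rule names are not reported here.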

Additional observations from a re-analysis of the deposited data

How the results depend on the processing

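With 2 or 3 libraries per group, single libraries decided several values. Genes called for MP over LSK numbered 1657 averaged, 551 in polysomal and 179 in total RNA, and 0 in the 4 other comparisons. Leaving out 1 library gave 652 to 1480, 0 to 516 and 0 to 446 genes, 0 to 1 for averaged polysomal over total RNA and 0 for the others, with 0 to 1 member called averaged. DESeq2 called 2706, 1624 and 1471, then 433 for the fraction in LSK, 30 in MP, 765 averaged and 1 for the interaction, and it called 1 member, Msi2, both averaged and in total RNA. Without a filter the counts were 2636, 1558, 1206, 547, 22, 843 and 4, and 2 members, Msi2 and Zfp36l2, were called averaged. limma on the authors' values called 850 in total RNA, 486 for the fraction in LSK and 462 for it averaged; scaling by totals gave 328 in total RNA. Fits of only the groups compared called 304 in polysomal and 0 in total RNA. Without both LSK libraries numbered 2, 197 were called in polysomal RNA; without both MP libraries numbered 1, 384 averaged, 0 in either fraction, and 0 members. Causes were not tested.

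Of 12 same-numbered pairs of libraries, 9 deviated together from their group means (correlations 0.25 to 0.62) and 3, all with MP polysomal 2, did not (-0.37 to -0.058). In groups of 2 libraries the deviations mirror each other, so pairs numbered 1 and pairs numbered 2 between such groups repeat the same value. MP polysomal 3 deviated with libraries numbered 2: 0.57 with LSK polysomal 2, 0.58 with LSK total 2 and 0.61 with MP total 2. MP polysomal 2 had 0.35 with LSK total 1, 0.37 with MP total 1 and 0.058 with LSK polysomal 1. Shared numbers therefore were not taken as pairs, and whether some mark a shared preparation was not tested. The replicate block gave number 3, held only by MP polysomal 3, a level of its own. It called 570 genes for MP over LSK in total RNA and 1 for averaged polysomal over total RNA. A replicate block within population called 1 for the fraction in MP and 1 averaged. Msi2 averaged kept its call under the replicate block (-1.55, adjusted p = 0.0308 by edgeR).

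Some uncalled log2 values changed sign. Leave-one-out ranges for MP over LSK were -0.12 to 0.56 for Igf2bp2, -0.0094 to 0.52 for Syncrip, -0.72 to 1.46 for Elavl1, -0.28 to 0.20 for Zfp36l1 and -2.61 to 0.088 for Zfp36l2. For polysomal over total RNA they were -0.076 to 0.48 for Msi2, -0.67 to 0.048 for Igf2bp2, -0.13 to 1.73 for Elavl1 and -0.66 to 1.68 for Zfp36l2. Scaling by totals gave -0.14 for Igf2bp2 and -0.045 for Syncrip in MP over LSK. Without both LSK libraries numbered 2, MP over LSK was -0.028 for Igf2bp2, -0.18 for Syncrip, 0.44 for Zfp36l1 and 0.74 for Zfp36l2, and polysomal over total RNA was 0.14 for Igf2bp2 and 1.03 for Zfp36l2. Without both MP libraries numbered 1, MP over LSK was -0.21 for Igf2bp2 and 0.21 for Zfp36l1. The replicate block gave -0.076 for Elavl1 in MP over LSK and 0.22 for Zfp36l2 in polysomal over total RNA, which was 0.13 with the block within population and 0.47 with limma on the authors' values.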
